A study of Homo sapiens with 28 samples.

Results

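The 42 genes described here are textbook transcriptional targets of p53. They were chosen by name, with earlier results of these data known, among 19970 protein-coding genes of chromosomes 1 to 22 and X (GENCODE 44, hg38). Each gene was taken with 5 kb on either side as its window, the 2 kb around its start (1 kb either side) as its promoter and the rest of the gene as its body. The windows together held 2015106 bp and none overlapped another, although 21 of the 42 also held part of another protein-coding gene and 6 lay on chromosome 8. The study asked where ASH1L, a histone methyltransferase, acts in chromatin after UV damage, in the osteosarcoma line U2OS. Wild-type U2OS cells served for ChIP-seq of H3K36me2, with 2 replicates without UV and 2 taken 3 h after a UV-C dose of 20 J m-2. The C-terminal domain of ASH1L (CTD) was profiled with a Flag antibody in ASH1L-/- U2OS cells transfected with a plasmid that expresses Flag-ASH1L-CTD from a CMV promoter, with 3 replicates without UV and 3 at 3 h after the same dose. Both CTD groups thus lacked full-length ASH1L and carried an overexpressed fragment, whereas the H3K36me2 groups had their own ASH1L and no transgene. The values are broad peaks called separately in each replicate, against inputs pooled over duplicates for H3K36me2 and against empty-vector ChIP for the CTD, where the control was pooled at 3 h but not without UV.

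In unstressed cells p53 is kept scarce by its target MDM2, a ubiquitin ligase. DNA damage such as UV photoproducts stabilizes it, and it then binds response elements near its target genes and raises their transcription, which halts the cell cycle, aids repair or triggers cell death. H3K36me2 is a histone mark of broad domains in and between active genes, and ASH1L is one of the enzymes that deposit it.

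The p53 response element consensus consists of 2 half-sites of 10 bases each. Matches within 5 kb of the gene start, allowing up to 2 mismatches outside the fixed C and G of each half-site and no spacer, were found in 17 of the 42 genes (40.5%), which held 18 matches, and in 7.57% of all protein-coding genes. Those below, read from the hg38 genome on the strand of the gene, are shown because peaks of the lists can be placed on or beside them, and the capitals mark the core of each half-site.
CDKN1A, chr6:36676449-36676468, plus strand: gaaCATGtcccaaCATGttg
GDF15, chr19:18373947-18373966, plus strand: agaCCTGcccggaCATGtcc
SPATA18, chr4:52051957-52051976, plus strand: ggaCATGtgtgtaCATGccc
BTG2, chr1:203303642-203303661, plus strand: acgCATGttcaggCATGcat
PLK2, chr5:58462274-58462293, minus strand: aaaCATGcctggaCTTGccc
ZMAT3, chr3:179070188-179070207, minus strand: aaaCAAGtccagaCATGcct
MDM2, chr12:68808923-68808942, plus strand: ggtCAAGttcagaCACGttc
BAX, chr19:48955213-48955232, plus strand: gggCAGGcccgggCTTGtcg
PMAIP1, chr18:59899549-59899568, plus strand: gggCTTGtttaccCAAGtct
GADD45A, chr1:67686775-67686794, plus strand: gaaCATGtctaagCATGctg
The PLK2 and ZMAT3 sequences matched the consensus with 0 mismatches. Gene starts are here the outermost annotated ones. The CDKN1A match spans that start, which lies 2254 bp from the start of the Ensembl canonical transcript. For GDF15 the start used lies 11427 bp from the canonical one. A match is a description of letters and was not tested as a binding site.

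Of the 18 matches, 5 and 5 lay under an H3K36me2 peak (at least 10 bp of overlap) in the lists without UV, and 4 and 3 in the lists at 3 h. Of the 1589 matches of all protein-coding genes, 22% and 23% lay under a peak without UV, and 14.2% and 13.9% did so at 3 h. The CDKN1A and GDF15 matches were under a peak in all 4 H3K36me2 lists. The SPATA18 match was under one in both lists without UV and 1 at 3 h, and the match in TNFRSF10B in both lists without UV and in 0 at 3 h. The matches at MDM2, BAX, GADD45A, PMAIP1 and ZMAT3 were under no H3K36me2 peak in any list. CTD peaks covered 7, 3 and 1 of the 18 matches without UV and 6, 3 and 5 at 3 h, so the 2 groups overlapped. Of the matches of all protein-coding genes, 22.8%, 15.7% and 11.5% lay under a CTD peak without UV and 16.9%, 17.3% and 21.9% at 3 h. Without the CTD replicates named below as highest at promoters, the counts over the 18 matches were 3 and 1 without UV and 6 and 3 at 3 h.

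Each list held 500000 peaks, ranked by −log10 p, so that lists could differ in the place and width of their peaks but not in their number. H3K36me2 peaks covered 14.8% ± 0.401 of the genome without UV and 13.4% ± 0.303 at 3 h (SD, n = 2), and CTD peaks 9.80% ± 1.10 and 9.97% ± 0.433 (SD, n = 3). The peaks were weak: the median fold enrichment over the control inside the 42 windows was 1.71 to 1.90 across the 10 lists, the highest was 2.35 to 3.00, and a −log10 p of 3 or more was reached by 25 and 23 H3K36me2 peaks without UV, 23 and 26 at 3 h, and by no more than 2 CTD peaks of any list. The lists carry no read depth, so precision rests on the spread between replicates. A larger or smaller cover does not separate fewer cells carrying the mark from less mark per cell; these cannot be told apart. The CTD lists of replicate 1 without UV and replicate 3 at 3 h covered the promoters of the 42 genes most, at 30.2% and 34.1% against 13.6% to 26.7%. They were not clearly separate, since replicate 2 at 3 h, at 26.7%, lay nearer to 30.2% than to the next list, at 20.2%. The main CTD values are also given without this pair, which was chosen after seeing the data.

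H3K36me2 peaks covered less of the p53 target genes at 3 h after UV than without UV. Over the union of the 42 windows the cover was 11% and 11.2% in the lists without UV and 8.26% and 8.69% at 3 h, which is 11.1% ± 0.10 against 8.47% ± 0.306 (SD, n = 2). The number of peak centres in the windows was 255 and 267 without UV and 241 and 236 at 3 h. Neither measure overlapped between the groups. The number of peaks in the windows with a −log10 p of 3 or more did overlap, at 25 and 23 without UV and 23 and 26 at 3 h. How the median change depends on such thresholds is given in the closing section. Gene by gene, the median cover was 11.8% without UV and 7.41% at 3 h, with a median change of −3.57 percentage points. All protein-coding genes had medians of 8.88% and 4.91% and a median change of −1.96 points.

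In 23 of the 42 windows both lists at 3 h lay below both lists without UV (54.8%), and the same held for 47.5% of all protein-coding genes. In 3 windows, those of APAF1, RRM2B and SPATA18, both lists at 3 h lay above (7.14%), as in 6.5% of all genes. The shares of target genes that were lower or higher were thus near the background. No target gene passed a Benjamini-Hochberg adjusted p of 0.05 in limma (background 0.0%), where CDKN1A came nearest with an adjusted p of 0.0620. At an unadjusted limma p under 0.05 there were 11 (26.2%), against 27.2% of all genes. By peak centres in place of bases, 12 of the 42 windows were lower without overlap (background 28.5%) and 4 were higher (background 7.6%). With only the peaks supported by another replicate, which ties the replicates to each other, limma called 7 of the 42 genes lower (EPHA2, RPS27L, FDXR, BAX, CDKN1A, ACER2 and NINJ1; background 22.1%) and 3 higher (TRIAP1, SPATA18 and SESN1; background 3.53%).

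**Figure D1:**
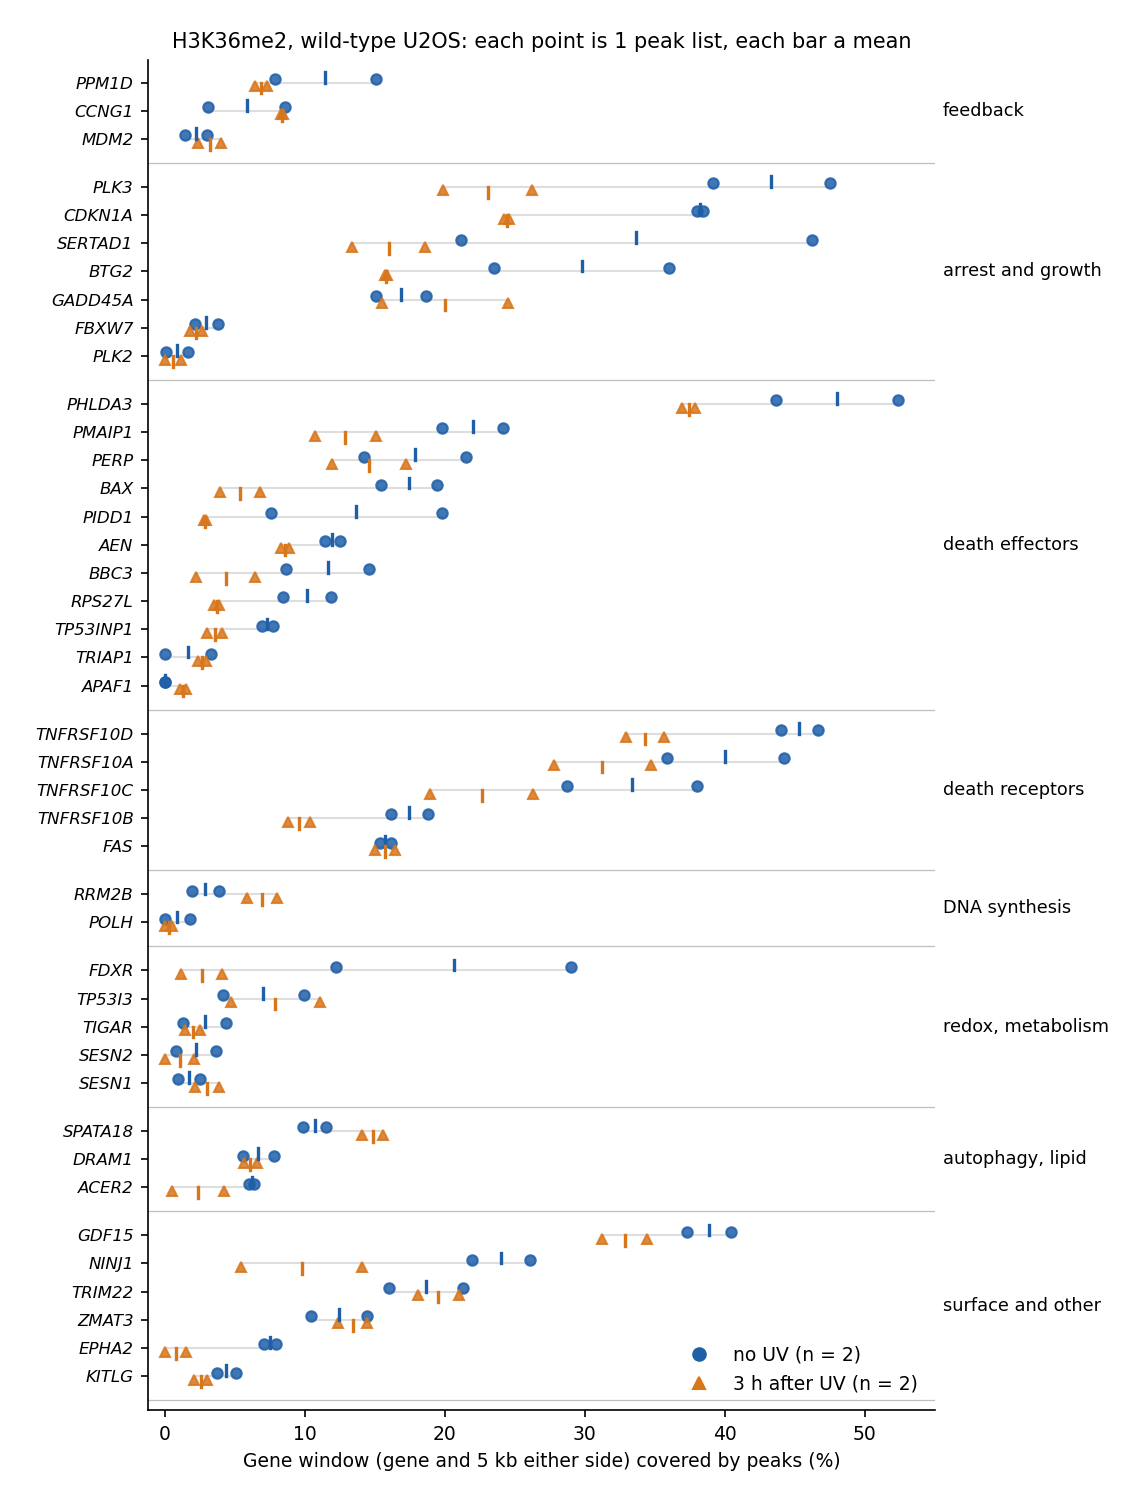
Percent of each window (gene plus 5 kb either side) covered by H3K36me2 peaks, for the 42 p53 target genes grouped by role, with 1 point per list and a bar at the mean of the 2 lists of a group. PHLDA3, TNFRSF10D and PLK3 have the highest cover without UV and APAF1, PLK2 and POLH the lowest; in 23 genes both points at 3 h lie below both points without UV.

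Counts by role are to be read against all protein-coding genes, of which 47.5% were lower and 6.5% higher without overlap, with a median change of −1.96 points; no role was tested against them. Among the genes for cell cycle arrest and growth, 4 of 7 windows were lower at 3 h without overlap and none was higher, with a median change of −13.8 points. CDKN1A, which encodes the cyclin-dependent kinase inhibitor p21, was covered to 38.5% and 38% without UV and to 24.6% and 24.2% at 3 h. Its replicates lay close together and its groups far apart, and its unadjusted limma p was 0.000912. The lists were also apart in the promoter and in the body. The CDKN1A promoter was covered to 95.9% and 98.4% without UV and to 53.3% and 52.9% at 3 h, and the body to 17.1% and 6.27% without UV and to 1.96% and 0% at 3 h. The site over the start, chr6:36675493-36678751 without UV, had a fold enrichment of 2.42 and 2.35. At 3 h the peak over the start ended close to it in both lists, while the upstream domain was present in all 4. The start used here is the outermost annotated one, 2254 bp from that of the Ensembl canonical transcript. In the 2 kb around the canonical start, H3K36me2 cover was 51.9% and 18.3% without UV and 9.70% and 0% at 3 h.

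PLK3, a polo-like kinase of the stress response, had the largest decrease of the 42, with 47.5% and 39.1% covered without UV and 19.9% and 26.2% at 3 h. BTG2, an antiproliferative cofactor, was covered to 36% and 23.5% without UV and to 15.7% and 15.9% at 3 h, and its body to 13% and 15.6% against 0% in both lists at 3 h. SERTAD1, a regulator of CDK4 and E2F activity, was covered to 21.2% and 46.2% without UV and to 13.3% and 18.6% at 3 h. All 3 had groups that did not overlap, although the lists without UV differed widely at SERTAD1. The decrease at BTG2 turned into an increase of 0.705 points when only peaks at or above a −log10 p of 3 were kept. GADD45A, a stress sensor in growth arrest and repair, was covered to 15.1% and 18.6% without UV and to 15.5% and 24.5% at 3 h, and its promoter and body were uncovered in all 4 lists, so that its peaks lay in the flanks. PLK2 and the ubiquitin ligase subunit FBXW7 stayed under 4% in every list with overlapping groups.

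**Figure D2:**
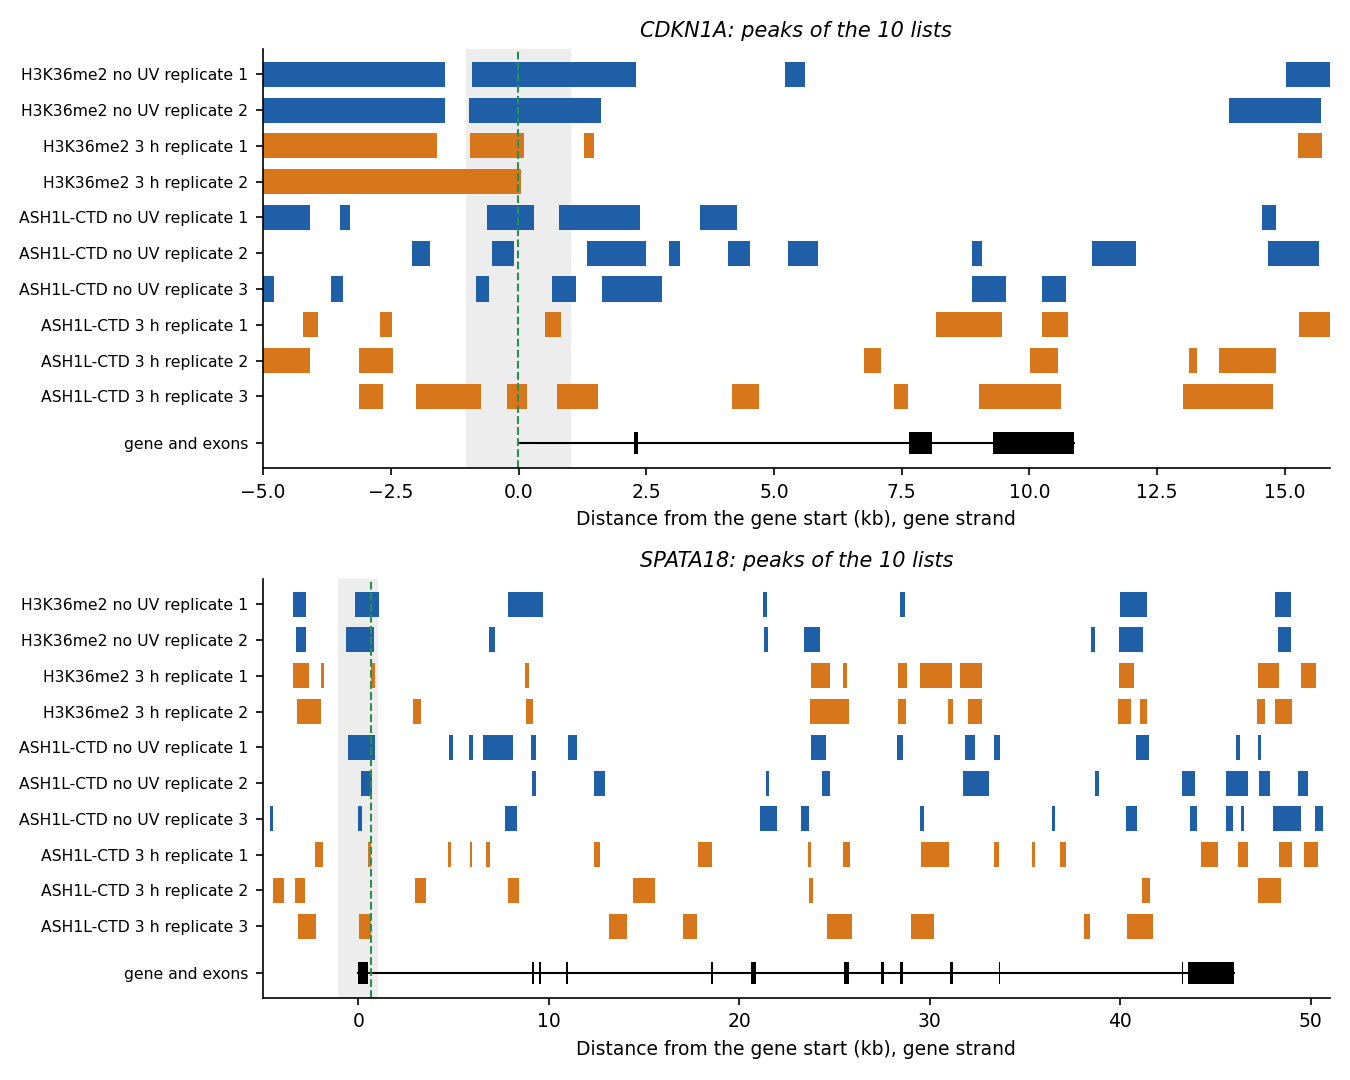
Peaks of the 10 lists (bars, blue without UV, orange at 3 h) at CDKN1A and SPATA18 against the distance from the gene start in kb along the gene strand, with the promoter in grey, the p53 element match as a dashed green line and exons in black. The gene start is the outermost annotated one, which at CDKN1A lies 2254 bp from the canonical start. At CDKN1A the H3K36me2 cover of the promoter is 95.9% and 98.4% without UV and 53.3% and 52.9% at 3 h; at SPATA18 the promoter peak of both lists without UV is reduced or missing at 3 h while the body carries more peaks.

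The genes that act back on p53 did not move together. MDM2, the ubiquitin ligase that degrades p53, was almost free of the mark, with 2.99% and 1.41% of its window covered without UV and 2.34% and 4.04% at 3 h, and with its promoter and body at 0% in all 4 lists. Cyclin G1 (CCNG1) was covered to 3.08% and 8.58% without UV and to 8.27% and 8.41% at 3 h. Both had overlapping groups. CCNG1 had the only promoter of the 42 that was higher at 3 h without overlap, at 0% in both lists without UV and 7.25% and 0.20% at 3 h (background 2.93%). The phosphatase PPM1D, which silences the damage response, was covered to 15.0% and 7.86% without UV and to 6.45% and 7.32% at 3 h, lower without overlap, but its change was +1.20 points with peaks at or above a −log10 p of 3.

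Of the 11 death effectors, 8 windows were lower without overlap and 1 was higher, with a median change of −6.47 points, to be set beside the 47.5%, 6.5% and −1.96 points of all genes. BAX, which permeabilizes the outer mitochondrial membrane, was covered to 15.4% and 19.5% without UV and to 6.77% and 3.92% at 3 h. BBC3 (PUMA), a BH3-only activator of BAX, was covered to 8.63% and 14.6% without UV and to 2.21% and 6.44% at 3 h. In the bodies of both genes no base was covered at 3 h, against 11.1% and 14.9% for BAX and 8.81% and 8.74% for BBC3 without UV. In both genes, too, the number of peak centres was 1 in each list at 3 h, against 3 and 3 at BAX and 5 and 3 at BBC3 without UV. The sites behind these values were chr19:48955659-48956482 in intron 3 of BAX and chr19:47224853-47225808 in intron 3 of BBC3, present in both lists without UV and without any peak at 3 h.

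PMAIP1 (NOXA), another BH3-only protein, was covered to 19.8% and 24.2% without UV and to 15.1% and 10.7% at 3 h, with its body at 0% in all 4 lists. Its window included a strong site downstream, chr18:59905805-59908862, with a fold enrichment of 2.72 and 2.71, and with 10 kb flanks in place of 5 kb its change was +5.97 points. PHLDA3, an inhibitor of Akt, had the highest cover of all 42 genes without UV, at 43.7% and 52.4%, and 37.0% and 37.9% at 3 h. TP53INP1, an inducer of p53-dependent apoptosis, was covered to 7.70% and 6.92% without UV and to 4.10% and 3.03% at 3 h. These 3 genes did not overlap between the groups. PHLDA3 and TP53INP1 turned to changes of +1.19 and +0.358 points with peaks at or above a −log10 p of 3, and TP53INP1 also to +0.103 points without flanks.

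The exonuclease AEN, the caspase-2 activator PIDD1 and RPS27L, a ribosomal protein homologue, were also lower without overlap, by 3.40 to 10.8 points in the means; for RPS27L the change was +0.568 points with peaks at or above a −log10 p of 3. APAF1, the scaffold of the apoptosome, had no H3K36me2 peak without UV and 1.53% and 1.06% cover at 3 h. This came from a single site downstream of the gene, chr12:98739368-98740875, with a fold enrichment of 1.71 and 1.82. The unadjusted limma p at APAF1 was 0.00274, but the cover was close to nil in all lists. The membrane protein PERP and the survival factor TRIAP1 had overlapping groups.

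Death receptors carried some of the highest H3K36me2 cover among the targets, and 4 of the 5 were lower at 3 h without overlap, with a median change of −8.77 points. TNFRSF10D, a decoy receptor for TRAIL, was covered to 46.6% and 44% without UV and to 32.9% and 35.6% at 3 h. TNFRSF10B (DR5), a signalling receptor for TRAIL, was covered to 18.8% and 16.1% without UV and to 10.4% and 8.81% at 3 h. TNFRSF10A (DR4) and the decoy TNFRSF10C were lower by 8.77 and 10.7 points, and TNFRSF10C turned to +0.0958 points with peaks at or above a −log10 p of 3. All 4 lie in a cluster on chromosome 8 and are not independent places. FAS, the receptor for Fas ligand, had 16.1% and 15.3% without UV and 16.4% and 15.0% at 3 h over its window, with overlapping groups, while its promoter was covered to 46.6% and 47.2% without UV and to 0% and 26.2% at 3 h. That promoter is at the outermost annotated start of FAS, 36985 bp from the start of the Ensembl canonical transcript, and the 2 kb around the canonical start had 0% in all 4 lists.

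Redox and metabolic targets were low in the mark except FDXR, the ferredoxin reductase of mitochondria. The FDXR window was covered to 12.2% and 29.0% without UV and to 4.09% and 1.16% at 3 h, and its body to 25.7% and 32.9% without UV and to 0% in both lists at 3 h. The lists did not overlap, and FDXR was the only target called lower by limma when peaks at or above a −log10 p of 2 were used (background 1.77%), with 0 called higher (background 0.225%). Of its body, chr17:74870765-74872342 in intron 2 had a fold enrichment of 1.87 and 1.91 without UV and no peak at 3 h. The sestrins SESN1 and SESN2, the fructose bisphosphatase TIGAR and the oxidoreductase TP53I3 had overlapping groups.

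A pair of targets was covered more at 3 h than without UV beside APAF1. RRM2B, the p53-inducible subunit of ribonucleotide reductase, was covered to 1.94% and 3.84% without UV and to 5.86% and 8.0% at 3 h. SPATA18 (Mieap), a protein of mitochondrial quality control, was covered to 11.5% and 9.85% without UV and to 15.6% and 14.1% at 3 h. The lists did not overlap at either gene, and the number of peak centres at SPATA18 was 7 and 8 without UV and 12 and 11 at 3 h. Both directions turned with peaks at or above a −log10 p of 2, to −0.513 points at RRM2B and −2.75 points at SPATA18. The SPATA18 gene held opposite directions inside its own window. Its promoter was covered to 58.6% and 74.0% without UV and to 11.7% and 0% at 3 h, whereas its body was covered to 8.31% and 6.35% without UV and to 12.4% and 11.7% at 3 h. Sites seen in both lists at 3 h and in none without UV lay at chr4:52080766-52082510 in intron 9 and chr4:52082898-52084038 in intron 10. POLH, the polymerase that copies past UV photoproducts, was nearly unmarked, with 0% and 1.77% without UV and 0% and 0.508% at 3 h.

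Of the remaining targets, GDF15 (a secreted stress cytokine), EPHA2 (an ephrin receptor), NINJ1 (which ruptures the plasma membrane of dying cells), KITLG (a cytokine) and ACER2 (a ceramidase) were lower without overlap. NINJ1 had the largest decrease of these, with 21.9% and 26.1% covered without UV and 14.1% and 5.44% at 3 h. GDF15 kept most of its cover, with 40.4% and 37.3% without UV and 34.5% and 31.3% at 3 h. EPHA2 was covered to 7.1% and 7.93% without UV and to 0% and 1.52% at 3 h. ACER2 turned to +0.348 points with peaks at or above a −log10 p of 2. DRAM1 (autophagy), TRIM22 (an antiviral ubiquitin ligase) and ZMAT3 (an RNA-binding protein) had overlapping groups.

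The promoters of the 42 genes had the largest relative decrease of the 4 parts of the window. Summed over the genes, 17% and 18.5% of promoter bases were covered without UV and 7.90% and 8.35% at 3 h, a log2 ratio of −1.13, against −0.65 for the promoters of all protein-coding genes (13.3% and 8.44%). In the 5 kb upstream the log2 ratio was −0.42 (28.5% ± 1.35 without UV, 21.3% ± 0.400 at 3 h), against −0.52 for all genes. In the body it was −0.32 (all genes −0.24) and in the 5 kb downstream −0.45 (all genes −0.53). The difference between the targets and all genes at promoters was not tested, and it rests on few genes, since 17 of the 42 promoters were uncovered in all 4 lists.

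Promoters with any peak numbered 18 and 22 of 42 without UV and 14 and 16 at 3 h. In 8 promoters both lists at 3 h were below both without UV (19%), against a background of 15.8%, which is again near. Besides CDKN1A, FAS and SPATA18, these were TNFRSF10B, TNFRSF10D, EPHA2, FDXR and BAX, and FAS is counted here by its outer start only. CDKN1A is also counted by its outer start, and around its canonical start both lists at 3 h were again below both without UV. The TNFRSF10B promoter was covered to 55.7% and 68.5% without UV and to 0% in both lists at 3 h, and that of TNFRSF10D to 93.3% and 64.2% without UV and to 42% and 4.0% at 3 h. At EPHA2, FDXR and BAX, no base was covered at 3 h and 2.95% to 33.1% without UV. In the bodies, 14 of 42 were lower without overlap (33.3%, background 36.6%) and 2, SPATA18 and TRIM22, were higher (background 5.89%), with a median change of −1.32 points against −1.06 for all genes.

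Of the sites with an H3K36me2 peak in both replicates, 147 lay in the windows without UV and 131 at 3 h. Without any peak in either list of the other condition were 25 of the 147 (17%), in 18 genes, and 14 of the 131 (10.7%), in 9 genes. Beside the places named above, those without UV included chr1:203306997-203307480 in exon 2 of BTG2, chr1:16151272-16151835 in intron 1 of EPHA2 and chr3:178970332-178970897 at ZMAT3, the last with a fold enrichment of 2.2 and 2.46. Those at 3 h included chr4:152462695-152463392 and others in intron 2 of FBXW7. FBXW7 had such sites in both conditions, and its total cover overlapped between them. The share of such sites over all genes was not computed, so these counts are not read as a result about the target genes.

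The change in H3K36me2 cover went with the base composition of the window. Across the 42 genes Spearman's rho between GC content and change was −0.736, and across all 19970 genes −0.600; the points share their libraries. In the 11 target windows of 50% GC or more, all 11 were lower without overlap, with a median change of −12.1 points, against 72.5% of all genes in that range and −7.62 points. In the 10 windows under 40% GC, 1 was lower and 2 were higher, with a median change of +0.916 points against 0 for all genes; of all genes in that range 18.9% were lower and 832 of 4763 higher. Between these, 6 of 13 were lower from 40% to 45% GC (37.7% of all genes) and 5 of 8 from 45% to 50% (58.9% of all genes). CDKN1A, PLK3, SERTAD1, FDXR and NINJ1 all lie in the GC-rich range and RRM2B and SPATA18 in the GC-poor range. The part of base composition in the result was not tested.

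**Figure D3:**
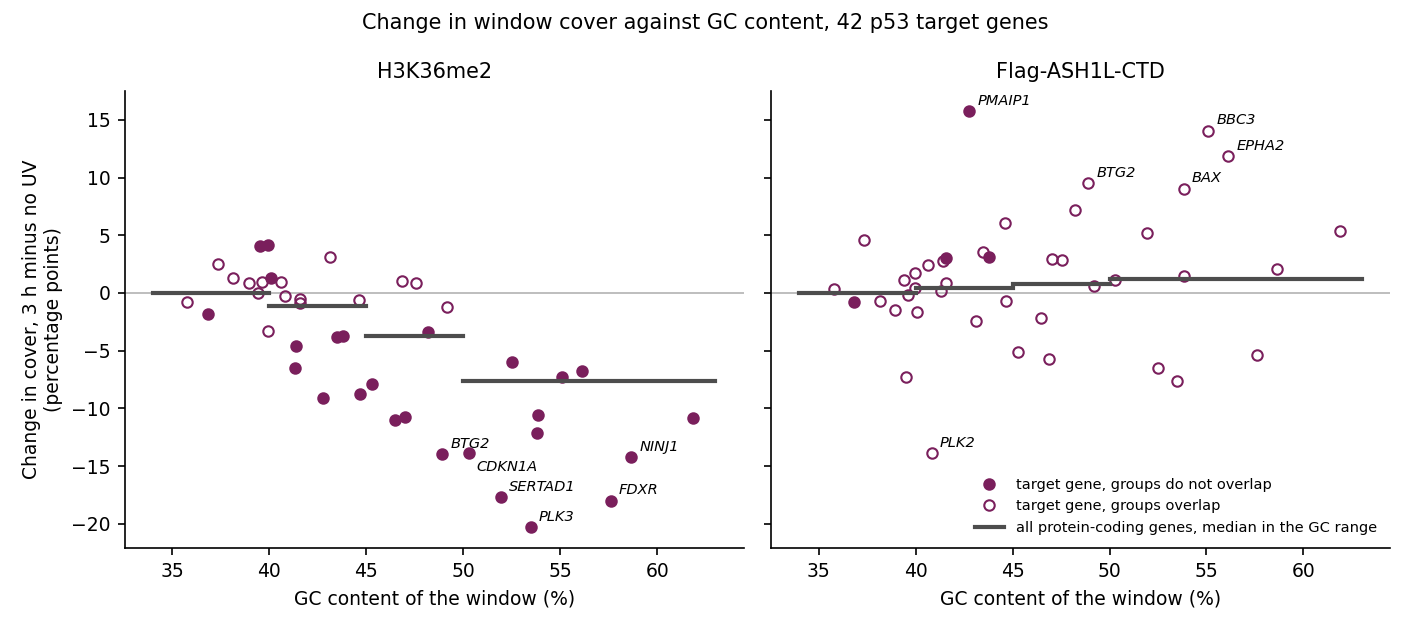
Change in window cover (3 h minus no UV, percentage points) against the GC content of the window (%) for the 42 p53 target genes, for H3K36me2 and Flag-ASH1L-CTD; filled points are genes whose groups do not overlap and grey lines the median over all protein-coding genes in each GC range. For H3K36me2 the 11 genes of 50% GC or more are all filled and below 0, whereas for the CTD the points lie on both sides of 0 along the whole range.

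CTD cover of the p53 target genes differed between the conditions by less than the spread between lists. Over the union of windows they covered 11.4% ± 2.22 of the bases without UV and 12.2% ± 1.6 at 3 h (SD, n = 3), and the peak centres numbered 410, 423 and 360 without UV, to set beside 401, 376 and 390 at 3 h. Both measures overlapped between the groups. The median cover of a gene was 15.1% without UV and 15.6% at 3 h, with a median change of +1.10 points against +0.363 for all genes. Lists of the same condition differed more than for H3K36me2, with a median SD per gene of 4.97 points without UV and 4.67 at 3 h, against 2.25 and 1.14. The control was pooled at 3 h only, and its part in any difference cannot be told apart from that of UV.

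In 3 windows all 3 lists at 3 h lay above all 3 without UV (7.14%, background 5.22%), and in 1 below (2.38%, background 2.14%). No target gene passed an adjusted p of 0.05 in limma (background 0.0%), the smallest being 1.0, and 2 had an unadjusted p under 0.05, PMAIP1 and DRAM1 (background 4.32%). Counted by peak centres, 1 window was lower (background 1.74%) and 2 were higher (background 2.91%). All of these shares were near those of all genes. Without replicate 1 without UV and replicate 3 at 3 h, where separation of the remaining 2 lists against 2 is more common, 10 windows were above (23.8%, all genes 21.0%) and 7 below (16.7%, all genes 10.6%).

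PMAIP1 had the largest difference among the windows that did not overlap. Its window was covered to 10.3%, 21.7% and 7.5% by CTD peaks without UV and to 22.9%, 32.0% and 31.8% at 3 h, a change of +15.7 points with an unadjusted limma p of 0.0265. Its promoter was covered to 28.0%, 25.3% and 0% without UV and to 33.0%, 72.0% and 79.6% at 3 h. All 3 lists at 3 h were above those without UV in both measures, and without the pair of lists highest at promoters the change over the window was +12.9 points. With 10 kb flanks the groups of PMAIP1 and of the other windows that were higher overlapped, and 0 were left. TP53INP1 was covered to 4.48%, 7.82% and 10.0% without UV and to 11%, 10.5% and 10.2% at 3 h, where the gap between the groups was small. DRAM1 was covered to 6.06%, 6.60% and 8.59% without UV and to 11.5%, 10.2% and 8.71% at 3 h, again with a small gap. KITLG was the window that was lower, at 2.30%, 3.04% and 3.11% without UV and 2.26%, 1.76% and 1.95% at 3 h. Without the pair of lists highest at promoters the changes were +1.83 points at TP53INP1, +3.26 at DRAM1 and −1.07 at KITLG.

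**Figure D4:**
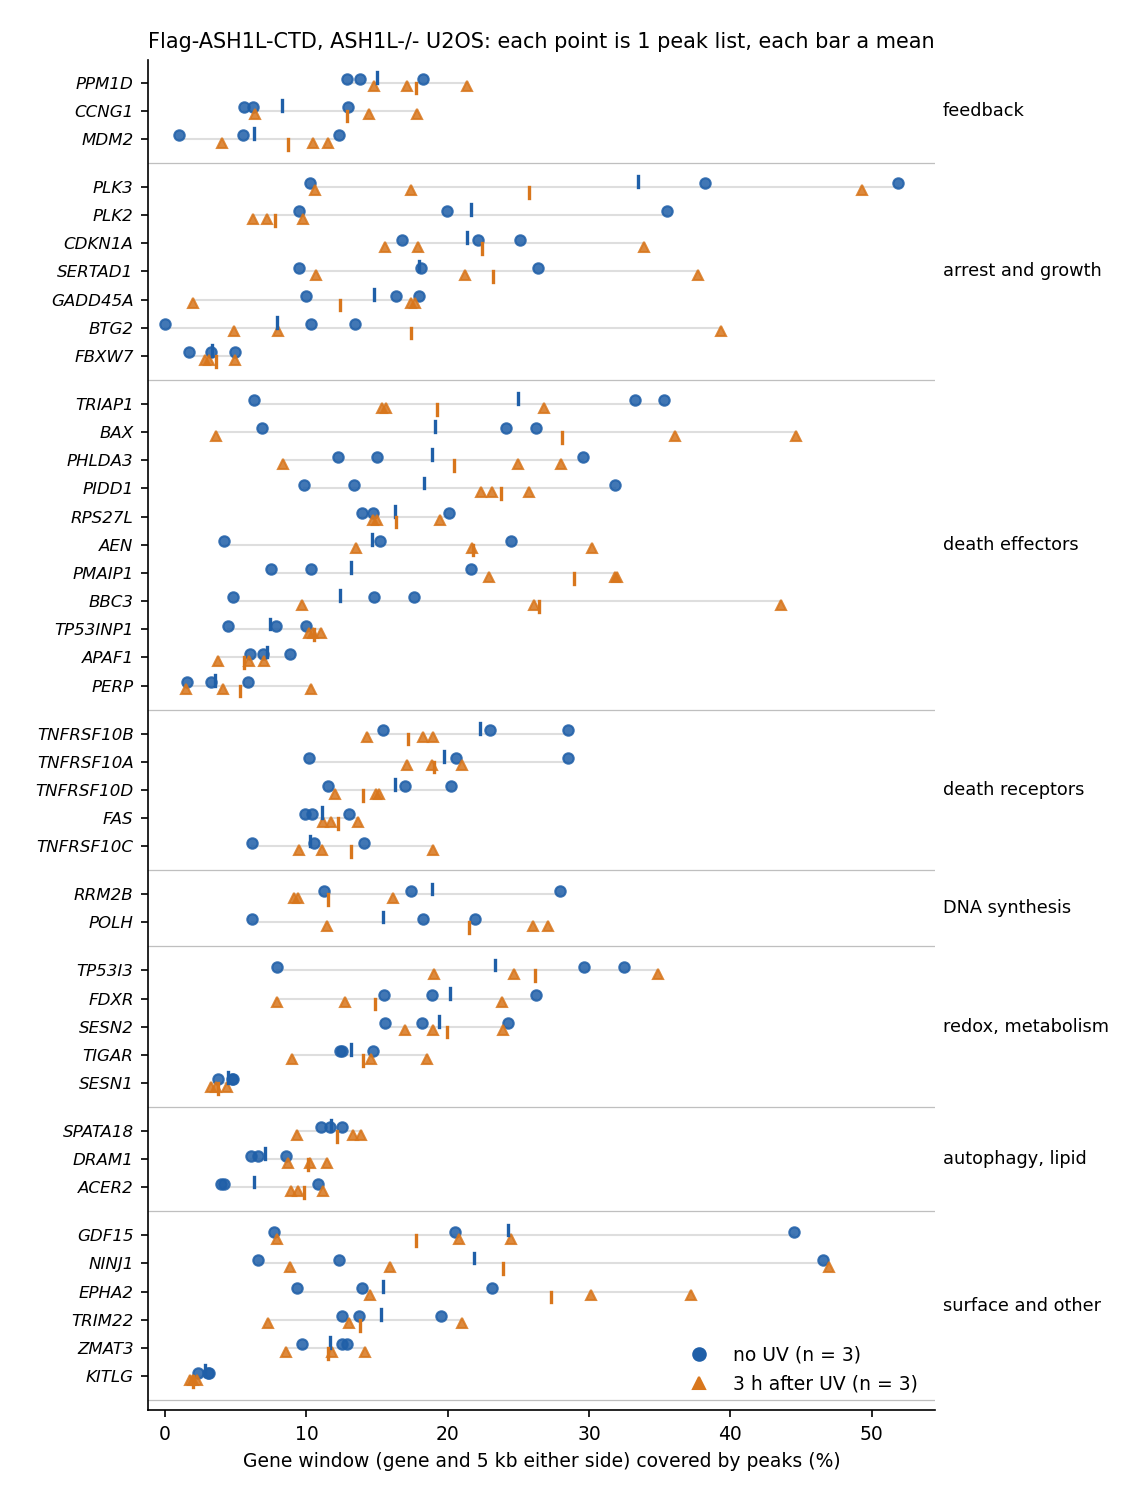
Percent of each window covered by Flag-ASH1L-CTD peaks, for the 42 p53 target genes grouped by role, with 1 point per list and a bar at the mean of the 3 lists of a group. PMAIP1, TP53INP1 and DRAM1 are the genes whose 3 points at 3 h all lie above those without UV, and KITLG the one with all 3 below.

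The best known targets had overlapping CTD groups over their windows. At promoters, CDKN1A around its canonical start and FAS at its outer start did not overlap, as given below. CDKN1A was covered to 22.2%, 25.1% and 16.8% without UV and to 15.6%, 17.9% and 33.9% at 3 h. MDM2 was covered to 12.3%, 0.988% and 5.48% without UV and to 11.5%, 10.4% and 4.03% at 3 h, and its promoter to 0% in all 3 lists without UV and to 58.2%, 0% and 41.5% at 3 h. The lists at 3 h thus differed widely among themselves at the MDM2 promoter. BAX was covered to 24.2%, 26.2% and 6.88% without UV and to 36.1%, 3.59% and 44.7% at 3 h, and BBC3 to 14.8%, 17.6% and 4.79% without UV and to 26.1%, 9.70% and 43.6% at 3 h. Both genes were high in replicates 1 and 3 at 3 h and low in replicate 2. GADD45A was covered to 17.9%, 16.4% and 9.96% without UV and to 17.4%, 1.95% and 17.7% at 3 h. FAS was covered to 13%, 9.90% and 10.4% without UV and to 11.7%, 13.7% and 11.2% at 3 h.

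PLK3 had the highest CTD cover without UV, but it ranged from 10.2% to 51.9% between those 3 lists, and TRIAP1 and GDF15 came next. KITLG, FBXW7 and PERP had the lowest. PLK2 had the largest decrease in the mean, from 9.49%, 35.5% and 20.0% without UV to 6.25%, 7.23% and 9.76% at 3 h, with groups that overlapped at a single list. A CTD site in exon 7 of PLK2, chr5:58456734-58457916, was seen in all 3 lists without UV and in none at 3 h. Sites seen in all 3 lists at 3 h and in none without UV included chr12:68812533-68813084 in intron 2 of MDM2 and chr6:36673330-36673999 upstream of CDKN1A. Over all windows, 55 of 250 CTD sites without UV (22%) and 40 of 248 at 3 h (16.1%), each in at least 2 lists, had no peak in the other condition. For the CTD, too, the share over all genes was not computed, so these counts are not read as a result about the target genes.

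Summed over promoters the CTD cover was 21.4% ± 8.36 before and 25.6% ± 9.01 after UV (SD, n = 3), within the spread, while the median change over the 42 promoters had the opposite sign, at −1.15 points against +0.133 for all genes. Without the pair of lists highest at promoters the summed cover was 20.2% and 13.6% before and 16.1% and 26.7% after UV, with overlapping groups, and the median change was +1.81 points. The FAS promoter was lower without overlap in CTD cover, at 22.8%, 9.25% and 23.7% without UV and 0% in all 3 lists at 3 h (1 of 42, background 2.94%). This too is the outer start: around the canonical start of FAS the CTD covered 40.9%, 35.8% and 31.2% without UV and 7.0%, 26.8% and 48.9% at 3 h, with overlapping groups. TNFRSF10A was higher, at 10.0%, 0% and 0% without UV and 82.4%, 17.4% and 21.4% at 3 h, and with PMAIP1 this made 2 of 42 (background 4.71%). In the bodies, SESN1 and APAF1 were lower (background 2.39%) by 0.695 and 1.72 points and 0 were higher (background 4.79%). The CTD level itself went with base composition, with a rho of 0.620 without UV and 0.784 at 3 h between GC content and cover over the 42 windows, whereas the change did so less, at 0.275.

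The genes with a printed promoter sequence were chosen after the values were seen and not by size of change alone. The TNFRSF10B promoter, not printed, changed by −62.1 points in H3K36me2 cover, against −60.5 at SPATA18. Printed below are promoter sequences of SPATA18, CDKN1A and PMAIP1, where CTD or H3K36me2 peaks at the start differed. They are the 250 bases before a RefSeq transcript start (GRCh38.p14), and the capitals mark GGGCGG or its reverse complement, the GC box (overlapping boxes run together), which was in 39 of the 46 RefSeq promoters of the 33 targets that matched and in 42.6% of 35116 promoters of all genes.
SPATA18 promoter, chr4:52051054-52051303, plus strand: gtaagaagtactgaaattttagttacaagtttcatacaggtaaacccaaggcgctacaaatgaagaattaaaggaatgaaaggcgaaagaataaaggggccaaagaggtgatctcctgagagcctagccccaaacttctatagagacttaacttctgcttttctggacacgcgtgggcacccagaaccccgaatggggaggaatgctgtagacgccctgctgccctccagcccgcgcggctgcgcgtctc
CDKN1A promoter, chr6:36678464-36678713, plus strand: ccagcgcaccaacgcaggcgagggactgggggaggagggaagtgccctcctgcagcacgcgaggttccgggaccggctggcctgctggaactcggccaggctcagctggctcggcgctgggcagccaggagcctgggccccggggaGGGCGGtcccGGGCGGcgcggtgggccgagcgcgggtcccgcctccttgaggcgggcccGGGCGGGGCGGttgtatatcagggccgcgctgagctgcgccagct
PMAIP1 promoter, chr18:59899746-59899995, plus strand: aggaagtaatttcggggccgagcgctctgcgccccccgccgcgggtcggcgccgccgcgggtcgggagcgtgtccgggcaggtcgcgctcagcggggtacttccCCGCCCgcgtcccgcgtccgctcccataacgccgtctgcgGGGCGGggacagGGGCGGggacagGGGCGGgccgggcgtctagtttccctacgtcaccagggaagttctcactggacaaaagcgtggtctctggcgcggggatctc
The SPATA18 sequence holds no GC box and was covered by H3K36me2 peaks to 68.8% and 100% without UV and to 0% in both lists at 3 h. CTD peaks covered it to 100%, 0% and 3.6% without UV and to 0% in all 3 lists at 3 h. The CDKN1A sequence, which lies before the start of the Ensembl canonical transcript inside the annotated gene, was covered by CTD peaks to 100% in all 3 lists without UV and to 0% in all 3 at 3 h. H3K36me2 peaks covered the same bases to 100% and 0% without UV and to 0% in both lists at 3 h. In the 2 kb around the canonical start, CTD cover was 56.0%, 68.7% and 58.7% without UV and 0%, 0% and 15.1% at 3 h, and H3K36me2 cover 51.9% and 18.3% against 9.70% and 0%. The share of all genes with CTD groups apart around the canonical start is not given here. Around the outer start of the gene, used for promoters above, the CTD groups of CDKN1A overlapped, so the 2 starts of this gene differed. The PMAIP1 sequence was covered by CTD peaks to 0%, 44.4% and 0% without UV and to 21.2%, 100% and 100% at 3 h, and by H3K36me2 peaks in none of the 4 lists.

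Among 16 genes that regulate p53 and are not targets in this list, 9 H3K36me2 windows were lower without overlap (47.5% of all genes) and 0 were higher (6.5% of all genes), with a median change of −1.05 points against −1.96 for all genes. USP7, the deubiquitinase that stabilizes MDM2 and p53, had the largest decrease, from 11.3% and 14.0% without UV to 2.46% and 2.76% at 3 h, with an unadjusted limma p of 0.00264. For the CTD 2 of the 16 were higher (5.22% of all genes) and 0 lower (2.14%), with a median change of +0.999 points against +0.363 for all genes. TP53BP2, an activator of p53 in apoptosis, was covered by CTD peaks to 5.10%, 4.70% and 4.74% without UV and to 11.8%, 9.37% and 7.21% at 3 h. MDM4, the partner of MDM2, was covered to 15.5%, 7.88% and 13.1% without UV and to 16.2%, 16.1% and 24.5% at 3 h, where the gap between the groups was small.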

How the data were processed

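ChIP-seq peak lists of 10 replicates were used. Per the labels and the study's methods, reads were trimmed (Trim Galore 0.6.5), aligned to hg38 without chromosome Y (BWA 0.7.17-r1188), filtered (SAMtools 1.7, Picard, bedtools 2.29.2) and called as broad peaks per replicate with MACS2 2.2.7.1. The deposited lists give each peak a fold enrichment (the ratio of ChIP to control), a −log10 p and a −log10 q, made by the authors; the −log10 p reaches down to between 1.22 and 1.42, below the stated p cutoff of 0.01. All peaks were used, including the many below that cutoff, and 0 columns held values of other samples.

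The percent of each window, promoter and body covered by the peaks of a list, and the number of peak centres, were computed for 19970 genes. Window cover was compared on the arcsine square root scale with limma (two-sided, prior variance following window length, Benjamini-Hochberg over all genes, threshold 0.05), within 1 antibody. The scripts were tested on simulated data. Promoters and bodies were described without a test, and centres were fitted with limma as an alternative only; an exact permutation over lists cannot go below 0.333 for 2 against 2 and 0.1 for 3 against 3. Promoters were taken at the outermost annotated start, which in 7 targets (BBC3, CDKN1A, FAS, GDF15, PIDD1, TIGAR and TP53I3) lies over 1 kb from the canonical start. Groups were said not to overlap when every list of one lay on the same side of every list of the other. The labels call the replicates biological and the study calls them independent experiments, without saying that the cultures were separate. The p-values thus measure the spread between these samples. Members, roles and lists were chosen with earlier results of these data known. Genes named by rule were CDKN1A, MDM2, GADD45A, BAX, BBC3 and FAS, any called gene, up to 8 with the largest change and no overlap per antibody, those with no overlap at the promoter, and the 3 highest and 3 lowest without UV; others named for their role, in the account of a count, or as sites were chosen after their values were seen. Alternatives were other peak thresholds, peaks seen in another replicate, centres, scaling by genome cover, other flanks, promoters and starts, other fits, a replicate block, and leaving out replicates. Software was Python 3.11.15, NumPy 2.4.6, pandas 2.3.3, SciPy 1.17.1, pysam 0.24.0, matplotlib 3.10.9, bedtools 2.31.1, samtools 1.23.1, R 4.3.3 and limma 3.58.1. The study's H3K4me3, XPC and damage maps were not used here. One further pathway gene is not reported here.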

Additional observations from a re-analysis of the deposited data

How the results depend on the processing

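For H3K36me2 the median change over the 42 windows stayed below 0 or reached 0: it was −1.63 points with peaks of −log10 p of 2 or more, 0 with 3 or more, −2.03 with peaks seen in both replicates, −1.30 without flanks, −0.0862 centres per 10 kb, −0.171 as a ratio to the genome cover, and −4.07 to −2.75 when a replicate was left out. The promoter median of 0 became −4.63 with 2 kb either side and stayed 0 when a replicate was left out. The body median was 0, 0, −0.0380 and −0.0379 with the 2 thresholds, with peaks of both replicates and as a ratio, and −1.73 to −0.380 when a replicate was left out. Genes called lower, 0 with all peaks, were 1 with −log10 p of 2 or more (FDXR; 1.77% of all genes), 7 with peaks of both replicates (22.1%), 3 by centres (3.71%), 3 without flanks (1.61%), and 0 to 1 when a replicate was left out (PIDD1 without replicate 1 without UV; 5.68%); 3 were called higher with peaks of both replicates (3.53%) and 0 when a replicate was left out. The 23 windows lower without overlap were 14 and 3 with the 2 thresholds, 12 by centres (28.5% of all genes) and 15 without flanks. They were 25 to 30 when a replicate was left out. The 3 higher were 1 with −log10 p of 3 or more, 5 with peaks of both replicates, 5 as a ratio, and 5 to 10 when a replicate was left out. Counts without overlap in this section, and those at an unadjusted p, lack the share of all genes unless it is printed. They are not read as results about the target genes. Groups of fewer lists also separate more often.

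For H3K36me2, 13 of 378 comparisons of single genes were counted as turned in direction, all at genes whose groups did not overlap. These were ACER2 (0.348), RRM2B (−0.513) and SPATA18 (−2.75) with −log10 p of 2 or more, BTG2 (0.705), PHLDA3 (1.19), PPM1D (1.20), RPS27L (0.568), TNFRSF10C (0.0958), TP53INP1 (0.358), RRM2B (−0.770) and SPATA18 (−1.07) with 3 or more, TP53INP1 (0.103) without flanks and PMAIP1 (5.97) with 10 kb flanks; the cause was not tested. For the named genes of the CTD, 0 of 192 comparisons were counted as turned under the same rule. Only PMAIP1, TP53INP1, DRAM1 and KITLG had CTD window groups apart, so no other gene could be counted. A change of sign at genes with overlapping groups was not counted for either antibody, although their comparisons are part of the 378 and the 192. The counts of turns can thus miss changes of sign. A further 82 of 378 comparisons for H3K36me2 and 17 of 192 for the CTD changed in size without being counted as turned.

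For the CTD, when a replicate was left out, the median change was −0.912 to 1.96 over windows, −4.95 to 8.0 over promoters and −0.722 to 0.816 over bodies, with 0 called, 1 to 6 windows lower and 4 to 7 higher without overlap. The 1 lower window became 0 and 0 with the 2 thresholds, 2 without flanks and 2 with 10 kb flanks. The 3 higher became 0 with −log10 p of 3 or more, 9 with peaks seen in another replicate (1 called, CCNG1; 0.626% of all genes), 1 as a ratio, 0 without flanks and 0 with 10 kb flanks. Without replicate 1 without UV and replicate 3 at 3 h, chosen after seeing the data, 7 were lower and 10 higher.

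With a replicate block, 0 target genes were called for either antibody, and 11 of 42 for H3K36me2 and 1 of 42 for the CTD had an unadjusted p under 0.05. Deviations of same-numbered lists correlated at −0.0867 for H3K36me2 and −0.283, −0.0431 and −0.540 for the CTD over the 42 genes. No pairing by number was seen in these values. They cannot decide whether same-numbered lists were handled together, since each deviation is from the mean of few lists.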
